A study of Arabidopsis thaliana with 8 samples.

Results

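The second day in constant red light was set against the first in whole *Arabidopsis* seedlings, by comparing the arrays taken at 48 h with those taken at 24 h, genotype by genotype. The genotypes were *fhy3-4*, a mutant in a gene of the phytochrome A pathway, and No-0, the wild type of its background. Both had been entrained for 7 days in cycles of 12 h white light and 12 h darkness, on medium with sucrose, and about 100 seedlings were pooled for each sample. One Affymetrix ATH1 array was hybridised for each genotype and time, so that 4 of the 8 arrays of the series entered the comparison and none of the 4 has a replicate. The *fhy3-4* line stands here for loss of FHY3 in a single allele, and neither *FHY3* nor *FAR1* could be paired with a probe set, so that the genotype labels were not checked on the mutated gene. Of the 22810 probe sets on the array, the 12539 that detect a nuclear transcript and had a mean signal of at least 100 over the 4 arrays were described, and 6774 of these could be given a gene name.

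After entrainment, 24 and 48 h of constant light both fall at subjective dawn, the time at which lights would have come on, whereas 32 h falls in the subjective afternoon and 40 h in the subjective night. A gene under circadian control alone, with a period near that of the day, is expected to return to the same level at the same phase. Differences between the first and the second dawn can come from elsewhere, such as the age of the seedling, stored carbon, and the length of stay under a single colour of light. FHY3 and its relative FAR1 are transcription factors derived from transposases, known for activating *FHY1* and *FHL* in phytochrome A signalling and *ELF4* in the clock.

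A probe set is said to have moved where its signals at 48 h and 24 h differed by at least 1.5-fold. In *fhy3*, 223 of the 12539 probe sets (1.78%) were higher at 48 h and 38 (0.303%) were lower. In wild type, 484 (3.86%) were higher and 150 (1.2%) were lower. Both genotypes had 89 probe sets (0.71%) that were higher and 10 (0.0798%) that were lower the same way. The genotypes share no array in this comparison. Of the probe sets higher in *fhy3*, 39.9% were also higher in wild type, and of those higher in wild type, 18.4% were also higher in *fhy3*. A further 84 moved in *fhy3* while they differed by under 1.2-fold in wild type, 354 moved in wild type while they differed by under 1.2-fold in *fhy3*, 7 moved in opposite ways, and 245 moved in one genotype and lay between 1.2 and 1.5-fold in the other. Across the 12539 probe sets the log2 changes of the genotypes had a Pearson correlation of 0.32 and a Spearman correlation of 0.25, where the points share their arrays and are not independent. The median size of the log2 change between the dawns was 0.12 in *fhy3* and 0.14 in wild type. It was larger between 40 and 24 h, at 0.25 in *fhy3* and 0.19 in wild type. Between 32 and 24 h it was 0.15 in *fhy3*, nearer to that between the dawns, and 0.25 in wild type.

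**Figure D1:**
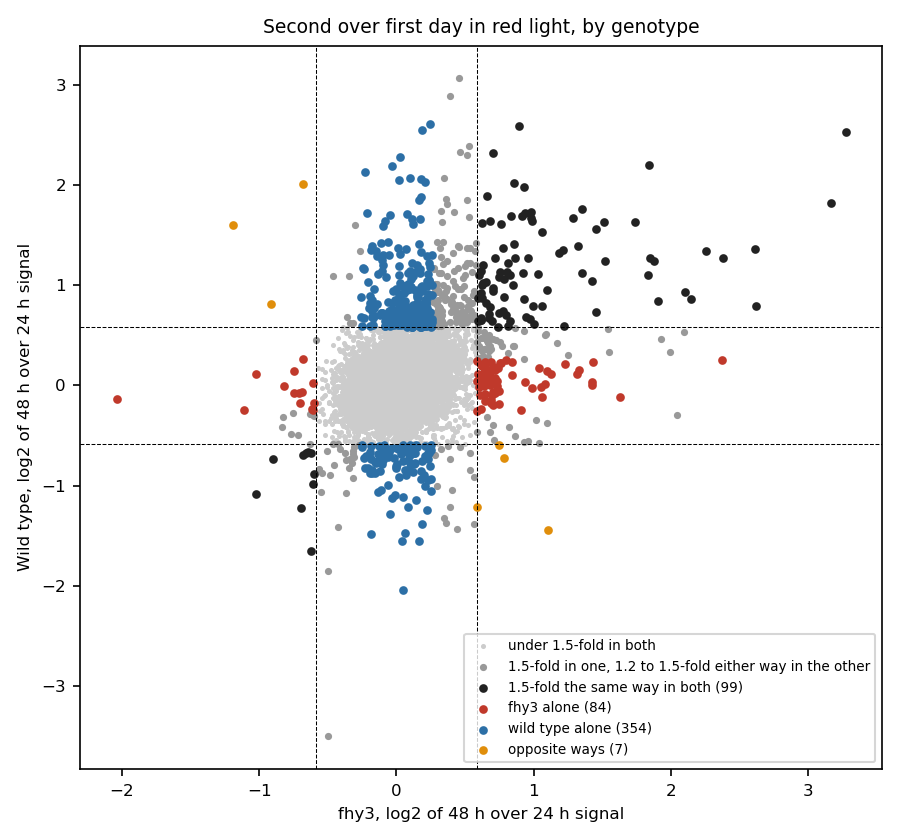
Log2 of the 48 h over the 24 h signal in *fhy3* (horizontal axis) and in wild type (vertical axis), with 1 point for each of 12539 probe sets and dashed lines at 1.5-fold. The 99 black points, of which 89 lie at the upper right, moved the same way in both genotypes, and the blue points that moved in wild type alone (354) outnumber the red points of *fhy3* alone (84).

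Each change between single arrays has no replicate, and the only spread that the design offers is the difference between the genotypes. A linear model with a term for genotype, fitted with limma to the log2 signals of the 4 arrays, asks whether the change that both genotypes share exceeds that difference, with 1 residual degree of freedom. Of 17660 probe sets above a low-signal limit, 0 passed at an adjusted p of 0.05 (0%), and the smallest adjusted p was 0.621. At an unadjusted p under 0.05 there were 1376 (7.79%), of which 998 were higher and 378 were lower at 48 h. The balance depended on the scaling, with 726 higher and 639 lower after quantile normalization and 970 higher and 667 lower after median centring. When the model was fitted only to the 12539 probe sets with a mean of at least 100, 21 passed, 20 higher and 1 lower. The 21 include 8 named genes. All 8 moved the same way in both genotypes, but the test itself asks for this. A call needs a large shared change and a small difference between the genotypes. No probe set therefore passed the test as planned, and an exact permutation test over 2 pairs could not go below a two-sided p of 0.5 for any single gene. The counts and levels that follow are descriptions of these 4 arrays, and whether the genotypes differ in their second-day change was not tested, as there is 1 array for each genotype and time. In whole seedlings, fewer cells of a type and less RNA per cell cannot be told apart.

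The arrays at the 2 dawns were close in their mean signals, which lay between 402 and 418. Of the 14 named markers of root, mesophyll, stomata, vasculature, seed, and flower, 6 reached a signal of 100. Of these 6, 4 were of mesophyll, 1 of vasculature, and 1 of root, and 0 moved. Of all probe sets, 1.78% were higher and 0.303% lower in *fhy3*, and 3.86% were higher and 1.2% lower in wild type. A count of 0 among 6 is close to those shares and says little about tissue make-up. The defining stomatal, seed, and flower markers that could be named were all below 100. The mean signal of the hybridisation control probe sets, which are added in fixed amounts, was 2875 in *fhy3* and 2798 in wild type at 48 h, against 2474 in *fhy3* and 2505 in wild type at 24 h. The ratio of 3′ to 5′ signal, a measure of how intact the labelled RNA was, was higher at 48 h for 3 of 6 control sets in *fhy3* and for 5 of 6 in wild type. For actin it was 3.496 in *fhy3* and 3.49 in wild type at 48 h, against 2.77 in *fhy3* and 3.48 in wild type at 24 h, and for GAPDH it was 2.74 in *fhy3* and 2.98 in wild type at 48 h, against 2.55 in *fhy3* and 2.33 in wild type at 24 h. The hybridisation control signals were higher at 48 h in both genotypes, as most of the probe sets that moved were, and the part of these signals and ratios in the results was not tested.

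The probe sets that were higher on the second day in both genotypes had a median log2 change of 0.86 in *fhy3* and 1.11 in wild type. Their mean signals were modest, with a median of 188 against 353 for all probe sets described. Of the 89, 39 had a gene name, and the 12 of these with the largest change in the genotype where it was smaller are described first. The gene whose smaller change was the largest was *AT4G16260*, of the beta-1,3-glucanase family, with a signal of 856 in *fhy3* and 477 in wild type at 48 h, against 257 in *fhy3* and 154 in wild type at 24 h. Both signals at 48 h lay above both at 24 h, and the mean log2 change was 1.68 (SE 0.10, adjusted p = 0.621 from limma over all probe sets tested and 0.0114 over those with a mean of at least 100). Its signals at 32 and 40 h were higher than at 24 h as well, and at 40 h they reached 2035 in *fhy3* and 896 in wild type.

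Chitinases, which cleave the chitin of fungal walls and are widely induced in defence, were among these genes more than once. *CHI* (*AT2G43570*), a chitinase gene, had 546 in *fhy3* and 397 in wild type at 48 h, against 219 in *fhy3* and 151 in wild type at 24 h, a log2 change of 1.32 in *fhy3* and 1.39 in wild type. *AT4G01700*, of the same glycosyl hydrolase family, had 270.0 in *fhy3* and 260.1 in wild type at 48 h, against 141 in *fhy3* and 143 in wild type at 24 h. *ChiC*, a chitinase of another family, was the most abundant, at 2432 in *fhy3* and 1880 in wild type at 48 h, against 1409.6 in *fhy3* and 898 in wild type at 24 h. In all 3 genes both signals at 48 h were above both at 24 h. The 24 genes of both chitinase families were then listed from general knowledge, after these values had been seen, and the list holds these 3 genes, so that its counts restate them in part. Of the 15 that could be named, 8 had a mean of at least 100, and 5 of these were higher in *fhy3* (1.78% of all probe sets) and 4 in wild type (3.86% of all), with 0 lower in *fhy3* (0.303% of all) and 1 lower in wild type (1.2% of all), and 3 were higher in both. Their median log2 change was 0.70 in *fhy3* and 0.55 in wild type, against 0.01 in each genotype for all probe sets described.

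The exception was *AT1G02360*, at 299 in *fhy3* at 48 h against 178 at 24 h, and at 197 in wild type at 48 h against 297 at 24 h. *AT2G43610* lay under 1.5-fold in both genotypes but also went opposite ways, with a log2 change of 0.58 in *fhy3* and −0.46 in wild type. *AT2G43620* was higher in *fhy3*, at 439 at 48 h against 278 at 24 h, and its signal in wild type was 589.6 at 48 h against 434 at 24 h. *AT3G47540* moved in wild type alone, with 412 at 48 h and 261 at 24 h. In *fhy3* it had 424 at 48 h and 407 at 24 h.

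Other enzymes and transporters were higher in both genotypes. *AT1G49570*, a class III peroxidase gene, had 250.3 in *fhy3* and 135 in wild type at 48 h, against 91.2 in *fhy3* and 45.7 in wild type at 24 h. *AT5G04120*, of the phosphoglycerate mutase family, had 301 in *fhy3* and 158 in wild type at 48 h, against 105 in *fhy3* and 51.1 in wild type at 24 h. Its course between the dawns differed, since at 40 h its signal was 39.9 in *fhy3* and 301 in wild type. *BGLU28*, a beta-glucosidase of glucosinolate turnover known for its induction when sulphur is short, was the most abundant of the 12, with 2006 in *fhy3* and 3549 in wild type at 48 h, against 785 in *fhy3* and 1043 in wild type at 24 h. Its signals at 32 and 40 h lay between those of the dawns in both genotypes. *AT3G05400*, of the sugar transporter family, had 397 in *fhy3* and 534 in wild type at 48 h, against 218 in *fhy3* and 221 in wild type at 24 h, again with intermediate values at 32 and 40 h.

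*SBT3.5*, which encodes a subtilase, a secreted protease, had 342 in *fhy3* and 180.1 in wild type at 48 h, against 128 in *fhy3* and 87.6 in wild type at 24 h. *AT1G30700*, of the berberine bridge enzyme-like family, differed more in *fhy3*, with 294 at 48 h against 68.3 at 24 h, than in wild type, with 116 at 48 h against 60.6 at 24 h. The remaining 3 of the 12 were *AT1G65500* (log2 change 1.29 in *fhy3* and 1.67 in wild type), *AT3G18250* (1.03 in *fhy3* and 1.11 in wild type), and *AT4G22510* (0.86 in *fhy3* and 1.41 in wild type). For 9 of these 12 genes the signal was higher in *fhy3* than in wild type at 48 h.

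**Figure D2:**
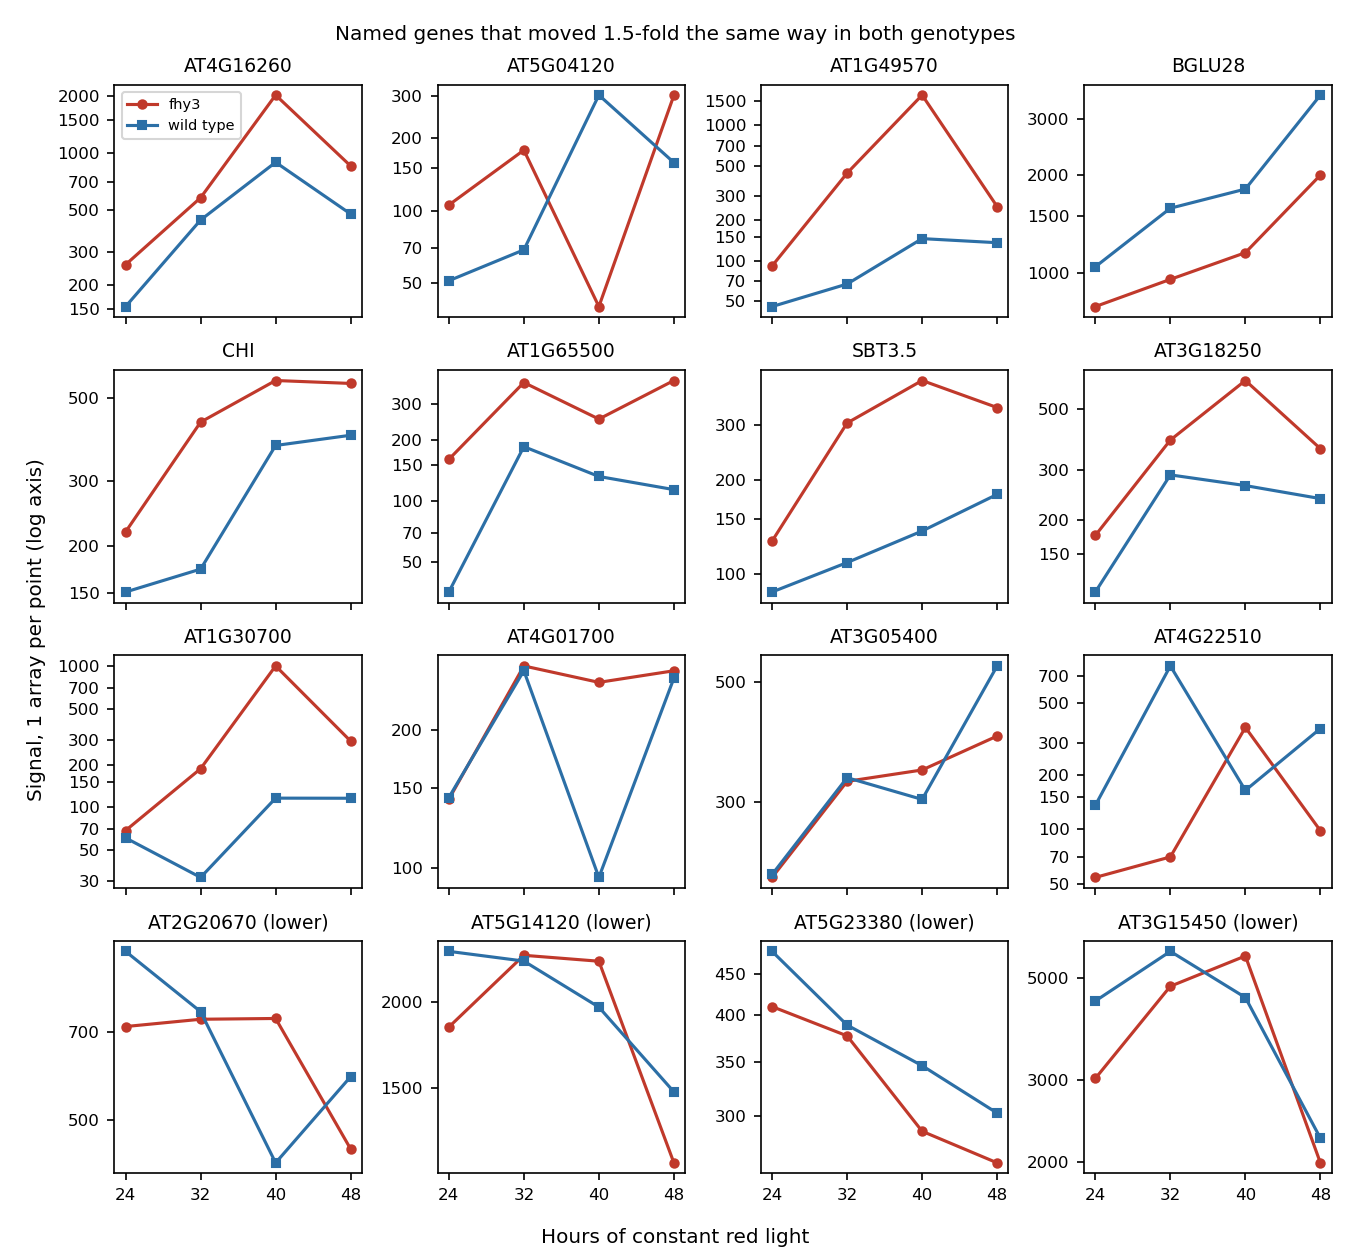
Signal over hours of constant red light in *fhy3* (red circles) and wild type (blue squares) for the 12 named genes that were higher and the 4 that were lower at 48 h than at 24 h in both genotypes, each on its own log axis, with 1 array per point. *BGLU28* climbs through all 4 times in both genotypes, whereas *AT1G49570* and *AT1G30700* have their highest signal in *fhy3* at 40 h (1669 and 1005).

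Some genes beyond these were picked after their values had been seen, for a large change or a known role. *GSTU25*, a glutathione transferase gene, had the largest change in *fhy3* of the named genes higher in both, at 611 in *fhy3* and 140.5 in wild type at 48 h, against 99.2 in *fhy3* and 81.1 in wild type at 24 h. *AT1G74010*, of the strictosidine synthase-like family, had 231 in *fhy3* and 103 in wild type at 48 h, against 61.5 in *fhy3* and 57.3 in wild type at 24 h. In both genes the change in *fhy3* was the larger, with a log2 change of 2.62 in *fhy3* and 0.79 in wild type for *GSTU25*, and of 1.91 in *fhy3* and 0.85 in wild type for *AT1G74010*. *AT5G25930*, which encodes a receptor-like kinase, was closely matched, with a log2 change of 0.78 in *fhy3* and 0.74 in wild type.

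Most of the 89 probe sets also had a higher level in the mutant. Their signal was above that of wild type in *fhy3* for 76 of 89 at 24 h. The number was 74 at 32 h, 75 at 40 h, and 74 on the 48 h arrays, and 55 (61.8%) were above at all 4 times, against 17.1% of all 12539. The median log2 difference of *fhy3* over wild type was 0.58, 0.87, 1.06, and 0.54 in the order of the times, whereas over all probe sets it lay within 0.04 of 0 at each time. The 24 and 48 h arrays are those that chose them, and the 32 and 40 h arrays are not. This was not particular to the 89, since of the 70 that were higher in *fhy3* alone, *fhy3* lay above wild type for 59 at 32 h and 60 at 40 h. Of all 12539, *fhy3* lay above wild type for 6508 at 32 h and 6751 at 40 h. At both of those times the signal was already above that at 24 h for 78 of 89 in *fhy3* (87.6%) and 67 in wild type (75.3%), against 35.9% of all probe sets in *fhy3* and 30.3% in wild type, although this comparison shares the 24 h array with the rule. From 32 to 40 h, which shares none, the signal was higher at 40 h for 65 of 89 in *fhy3* (73.0%) and 56 in wild type (62.9%), against 52.2% of all in *fhy3* and 47.2% in wild type.

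The 10 probe sets that were lower on the second day in both genotypes were more abundant, with a median signal of 1005, and 4 had a gene name. *AT3G15450*, of the aluminium-induced protein family, known in *Arabidopsis* for its induction under carbon shortage, had 1987 in *fhy3* and 2247 in wild type at 48 h, against 3029 in *fhy3* and 4461 in wild type at 24 h. *AT5G14120*, of the major facilitator family of transporters, had 1169 in *fhy3* and 1482 in wild type at 48 h, against 1841 in *fhy3* and 2373 in wild type at 24 h. Both signals at 48 h were below both at 24 h in each gene. *AT2G20670* had 447 in *fhy3* and 590.1 in wild type at 48 h, against 715 in *fhy3* and 954 in wild type at 24 h, and *AT5G23380* had 263 in *fhy3* and 303 in wild type at 48 h, against 409.9 in *fhy3* and 479.8 in wild type at 24 h. The 2 are known only as genes for proteins of unknown function, and their log2 changes lay between −0.69 and −0.64 in both genotypes.

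How near a probe set lay to the threshold mattered for this group. The probe set just inside the limit for higher in both had a smaller log2 change of 0.59, and the one just outside had 0.58, and 61 more probe sets lay between 1.4 and 1.5-fold by their smaller change. With a threshold of 2-fold, 22 were higher and 1 was lower in both genotypes, and where a signal of at least 100 was asked of each of the 4 arrays, 43 were higher and 8 were lower.

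In *fhy3* alone, 70 probe sets were higher and 14 were lower, with a median log2 change of 0.70 for those that were higher. *XTH18*, which encodes an enzyme that cuts and rejoins xyloglucan in the growing cell wall, had 198 at 48 h against 64.1 at 24 h in *fhy3*, and 116 at 48 h against 125 at 24 h in wild type. Its signal in *fhy3* had reached 645 at 40 h. *AT3G13610*, which encodes the F6'H1 enzyme of scopoletin and related coumarin synthesis, had 1114 at 48 h against 415 at 24 h in *fhy3*, and 423 at 48 h against 421 at 24 h in wild type. The 4 signals at the dawns thus hold a single high value, that of *fhy3* at 48 h, beside 3 that nearly coincide. Between the dawns *fhy3* was also above wild type, at 769 against 352 at 32 h and 289 against 117 at 40 h.

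*AT4G01870* had the same shape at the dawns. In *fhy3* it was at 1358 at 48 h against 757 at 24 h. In wild type it was at 799 at 48 h against 744 at 24 h. Its signal in *fhy3* was already 1179 at 32 h and 1149 at 40 h, against 839 and 768 in wild type. *OTP81*, which encodes a pentatricopeptide protein of the plastid, was at 135 at 48 h against 67.8 at 24 h in *fhy3*, and at 105 at 48 h against 107 at 24 h in wild type, so that here it was the 24 h signal of *fhy3* that stood below the others. *AT5G14730* and the glycosyltransferase family gene *AT3G57380* had log2 changes of 1.13 and 0.93 in *fhy3*, beside 0.12 and 0.04 in wild type. Outside these 6, *WRKY6*, a transcription factor gene linked to senescence and defence, had a log2 change of 0.64 in *fhy3* and 0.19 in wild type.

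Of the 14 probe sets lower in *fhy3* alone, 4 had a gene name. *AT1G29090*, which encodes a papain-type protease, was at 45.9 at 48 h against 188 at 24 h in *fhy3*, and at 236 at 48 h against 259.6 at 24 h in wild type. It had the lowest log2 change of all 12539 probe sets in *fhy3*, −2.04. *scpl31*, a serine carboxypeptidase-like gene, was at 104 at 48 h against 211 at 24 h in *fhy3*, and at 156 at 48 h against 144 at 24 h in wild type. *AT2G24580* and *AT4G23440*, a gene of the TIR-NBS class of resistance genes, had log2 changes of −0.75 and −0.70 in *fhy3*, beside −0.07 and −0.17 in wild type.

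In wild type alone, 257 probe sets were higher and 97 were lower, and with each array centred on its median 204 were higher and 134 were lower. *AT5G55450*, of the lipid transfer protein family, had the largest change of a named gene, with 559 at 48 h against 571 at 24 h in *fhy3*, and 541 at 48 h against 118 at 24 h in wild type. The low signal was that of wild type at 24 h, while the other 3 lay close together. *AT1G68600*, of the malate transporter family, followed this pattern with 301 at 48 h against 266 at 24 h in *fhy3* and 315 at 48 h against 85.3 at 24 h in wild type, as did *AT3G48640* with 299.7 against 266.9 in *fhy3* and 359 against 99.5 in wild type, and *AT1G67860* with 393 against 364 in *fhy3* and 512 against 161 in wild type.

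*APL3*, a large subunit of ADP-glucose pyrophosphorylase, the enzyme that commits carbon to starch, had 389 at 48 h against 345 at 24 h in *fhy3*, and 338 at 48 h against 107 at 24 h in wild type. *AT5G03350*, which encodes a lectin-like protein known for its response to salicylic acid, differed from these, with 1134 at 48 h against 1171 at 24 h in *fhy3*, and 3875 at 48 h against 1188 at 24 h in wild type, so that its high signal was that of wild type at 48 h. Over the 257, *fhy3* lay above wild type for 225 at 24 h and for 58 at 48 h, and this gap uses the arrays that chose them. At 32 and 40 h, which did not, *fhy3* lay above wild type for 169 and 192 of the 257, against 6508 and 6751 of all 12539.

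**Figure D3:**
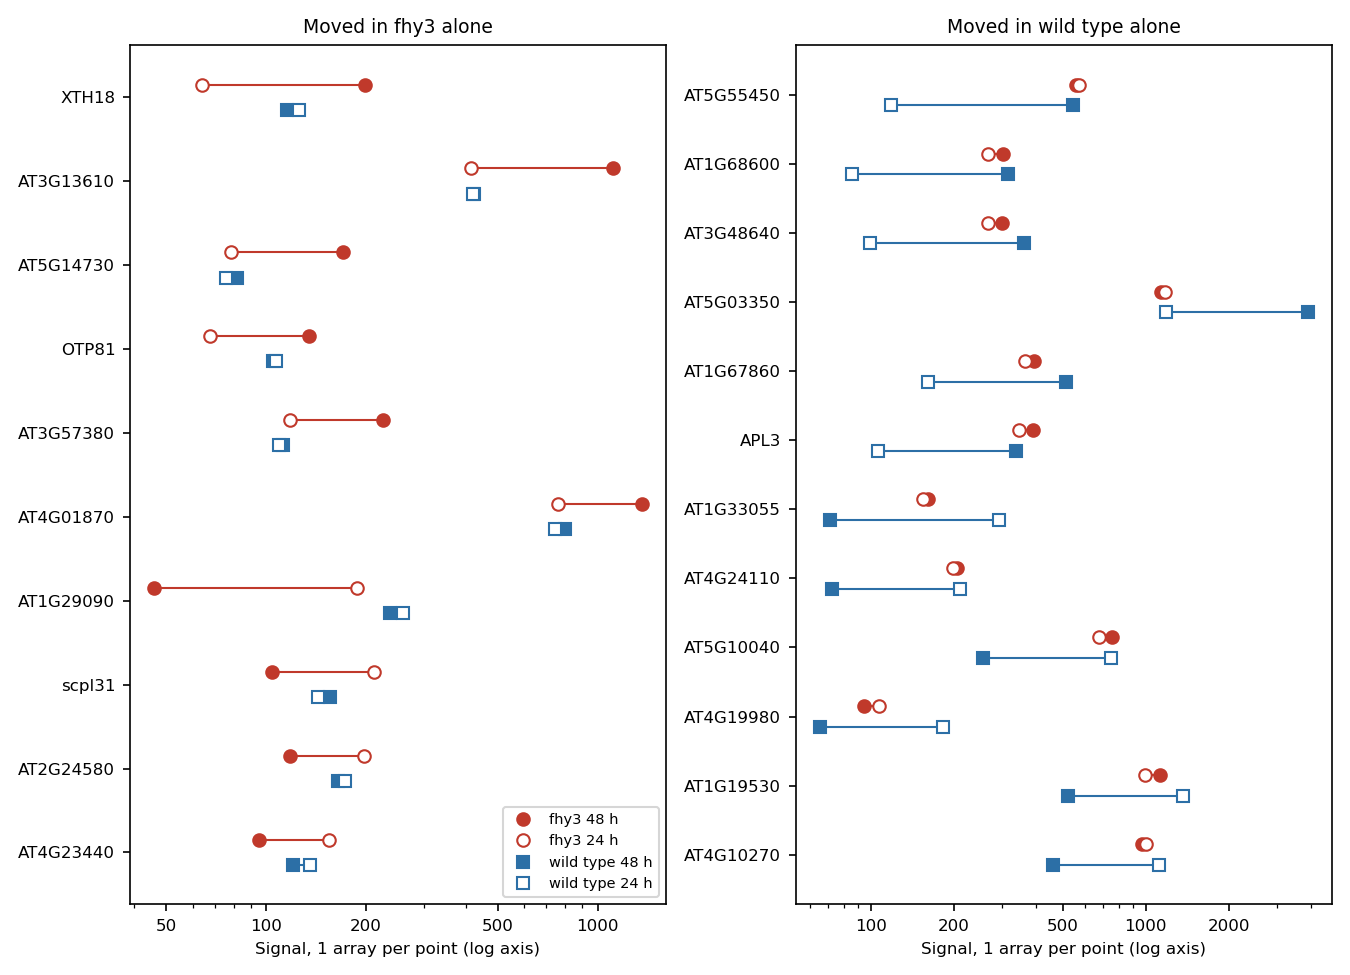
Signals at 48 h (filled) and 24 h (open) in *fhy3* (red circles, upper row of each gene) and wild type (blue squares, lower row) for the named genes that moved in *fhy3* alone (left) and in wild type alone (right), on log axes with 1 array per point. In the 5 of the 6 upper genes on the right other than *AT5G03350*, the open square of wild type at 24 h stands apart from the other 3 signals.

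Of the 6 named genes with the largest change among those lower in wild type alone, 5, all but *AT4G19980*, belong to the genes that *Arabidopsis* seedlings induce across organs when oxygen is low. *AT1G33055* was at 161 at 48 h against 155 at 24 h in *fhy3*, and at 71.0 at 48 h against 292 at 24 h in wild type. *AT4G24110* was at 205 at 48 h against 199 at 24 h in *fhy3*, and at 72.0 at 48 h against 212 at 24 h in wild type. *AT5G10040* was at 756 at 48 h against 674 at 24 h in *fhy3*, and at 255 at 48 h against 748 at 24 h in wild type. In each of the 3, wild type at 48 h was the low array, with a log2 change of −2.04, −1.56, and −1.55. The signals of *fhy3* at the 2 dawns differed by under 1.2-fold, which the rule for moving in wild type alone asks.

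More abundant members that were lower in wild type alone, and so level in *fhy3* by the same rule, were these. *AT4G10270* was at 969 at 48 h against 999.97 at 24 h in *fhy3*, and at 459 at 48 h against 1121 at 24 h in wild type. *AT1G19530* was at 1127 at 48 h against 989 at 24 h in *fhy3*, and at 523 at 48 h against 1369 at 24 h in wild type. In both, wild type at 48 h was again the lowest of the 4 signals. *AT4G27450* was at 2777 at 48 h against 2624 at 24 h in *fhy3*, and at 1549 at 48 h against 3599.7 at 24 h in wild type. *AT3G03270*, known as the universal stress protein gene *HRU1*, was at 2361 at 48 h against 2088 at 24 h in *fhy3*, and at 1321 at 48 h against 2521 at 24 h in wild type.

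Because of this, 39 genes known for their induction under low oxygen were listed from general knowledge, not from a curated table, after the values above had been seen and with those genes among them, so that their count is a description and supports nothing by itself. Of the 19 that could be named, 18 had a mean of at least 100. Of these, 0 were lower (0.303% of all probe sets) and 0 were higher (1.78% of all) at 48 h in *fhy3*. In wild type 14 were lower (1.2% of all) and 1 was higher (3.86% of all). The counts of 0 in *fhy3* are close to those shares. The rule by which some of these genes were first seen also asks for a level signal in *fhy3*. All 14 rest on the single wild type array at 48 h and that at 24 h. The median log2 change of these genes was 0.14 in *fhy3*, against −1.04 in wild type. The change was lower in wild type than in *fhy3* for 17 of 18, and the remaining gene was *FHL*, itself a known target of FHY3, with 177 at 48 h against 199.9 at 24 h in *fhy3* and 541 at 48 h against 324 at 24 h in wild type. *PDC2*, which encodes a pyruvate decarboxylase of ethanolic fermentation, had a log2 change of 0.23 in *fhy3* and −0.13 in wild type, and *AT5G42200* and *AT3G23170* lay within 0.2 of 0 in both genotypes.

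The list varied with time of day. The signal at 40 h was the lowest of the 4 times for 13 of 18 genes in *fhy3* and for 17 of 18 in wild type. *fhy3* lay above wild type for 6 of the 18 at 24 h and 9 at 32 h, but for 16 at 40 h and 17 at 48 h. Of all 12539 probe sets it lay above for 6245, 6508, 6751, and 6018 in the order of the times. The list holds genes first seen through their 24 and 48 h signals, so that its counts at 24 and 48 h restate that choice in part. *AT5G10040* was at 674, 262, 108, and 756 in *fhy3* and at 748, 323, 22.4, and 255 in wild type at 24, 32, 40, and 48 h. *AT3G29970* was at 1221, 793, 888, and 1808 in *fhy3* and at 2115, 1355, 62.7, and 1123 in wild type. In both genes the signal of wild type at 48 h stood above that at 40 h and below that at 24 h. The counts of 0 in *fhy3* and of 14 lower and 1 higher in wild type were the same under quantile normalization, median centring, and either other floor, alternatives added after the data had been seen.

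**Figure D4:**
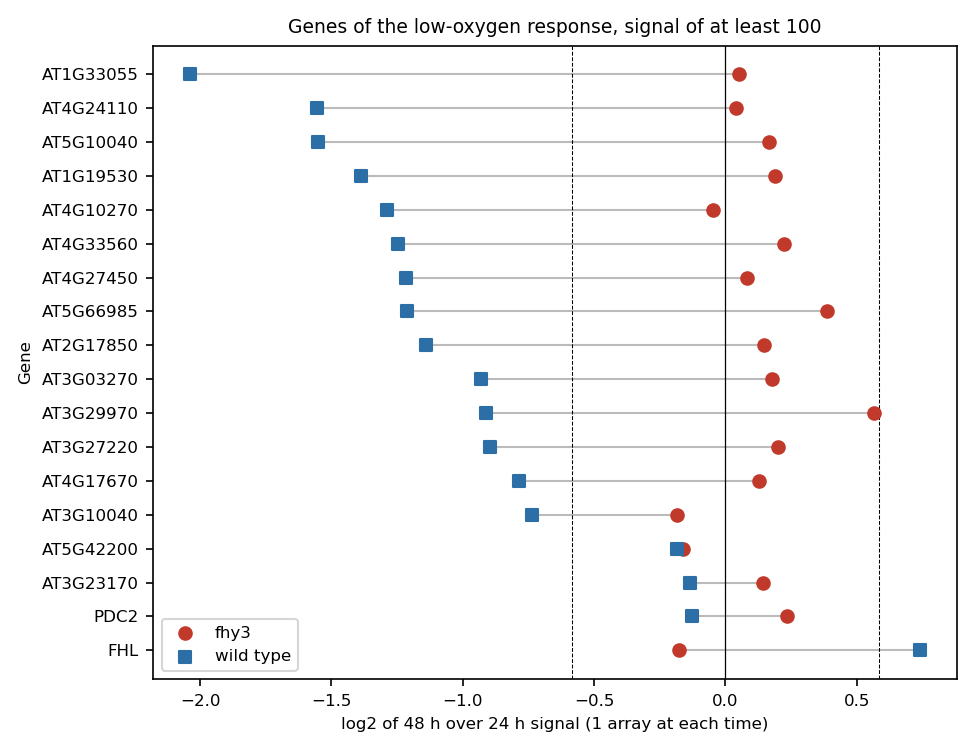
Log2 of the 48 h over the 24 h signal in *fhy3* (red circles) and wild type (blue squares) for the 18 genes of the low-oxygen response with a mean signal of at least 100, with dashed lines at 1.5-fold. The 14 upper genes lie beyond the left line in wild type, and no gene lies beyond either line in *fhy3*.

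Only 7 probe sets moved in opposite ways, of which 4 had a gene name. *ICL*, which encodes the isocitrate lyase of the glyoxylate cycle, had 1018 at 48 h against 473 at 24 h in *fhy3*, and 115 at 48 h against 311 at 24 h in wild type. At 32 h its signal was 3015 in *fhy3* and 74.0 in wild type, so that the mutant was far above wild type at each time after the first dawn. *AT1G02360*, the chitinase gene given above, was the other that was higher in *fhy3* and lower in wild type. *AT3G02480*, of the late embryogenesis abundant family, had 228 at 48 h against 429 at 24 h in *fhy3*, and 259 at 48 h against 147 at 24 h in wild type. *AT5G44570* had 128 at 48 h against 292 at 24 h in *fhy3*, and 62.8 at 48 h against 2.51 at 24 h in wild type, where the signal at 24 h was below the low-signal limit of 20.7.

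The central clock genes act in interlocking negative loops between dawn and evening components. Of 11 that could be named, 9 had a mean of at least 100. The log2 changes of the 9 lay between −0.20 and 0.64 in *fhy3* and between −0.18 and 0.37 in wild type. In *fhy3* 1 moved, where 1.78% of all probe sets were higher and 0.303% lower. In wild type 0 moved, where 3.86% were higher and 1.2% lower. With 9 genes, these counts are too small to be set apart from those shares. The dawn genes *LHY* and *CCA1* encode MYB transcription factors. *LHY* had 224 in *fhy3* and 1653 in wild type at 48 h, against 252 in *fhy3* and 1878 in wild type at 24 h. *CCA1* had 157 in *fhy3* and 769.8 in wild type at 48 h, against 151 in *fhy3* and 776 in wild type at 24 h. The difference between the genotypes was thus many times that between the days. *RVE8*, at 25.1 in *fhy3* and 159 in wild type at 48 h, against 21.5 in *fhy3* and 149.7 in wild type at 24 h, was below the mean of 100 and showed the same.

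Of the pseudo-response regulators, repressors that act through the day, *PRR5* had a log2 change of 0.27 in *fhy3* and 0.34 in wild type, *PRR7* of 0.06 in *fhy3* and 0.23 in wild type, and *TOC1* of 0.03 in *fhy3* and 0.15 in wild type. *PRR9* had a mean below 100, with 34.5 in *fhy3* and 35.2 in wild type at 48 h, against 39.2 in *fhy3* and 43.8 in wild type at 24 h. Among the evening genes, *GI*, which encodes a large clock protein of the evening, had 635 in *fhy3* and 236 in wild type at 48 h, against 513 in *fhy3* and 183 in wild type at 24 h. *ELF4*, of the evening complex and a known target of FHY3, had 130.4 at 48 h against 83.7 at 24 h in *fhy3*, and 133 at 48 h against 134 at 24 h in wild type. It was the only one that moved, so that at 48 h the genotypes had nearly the same signal. Its partners *ELF3* and *LUX* had log2 changes of −0.20 and −0.15 in *fhy3*, and of 0.06 and −0.17 in wild type.

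The share that moved varied with time of day. Probe sets were split by their signals at 40 and 32 h, which the comparison of the dawns does not use. In *fhy3*, 212 were at least 2-fold higher at 40 h than at 32 h, and 22.2% of these were higher at 48 h than at 24 h and 0% were lower, against 1.78% and 0.303% of all probe sets. Of the 382 that were at least 2-fold lower at 40 h, 5.50% were higher and 4.45% were lower at 48 h. In wild type, 32.6% of the 230 that were higher at 40 h were higher at 48 h and 1.74% were lower, against 3.86% and 1.2% of all, whereas of the 295 that were lower at 40 h, 4.07% were higher and 21.7% were lower. Probe sets with a high night signal were thus more often higher at the second dawn in each genotype. In wild type, those with a high afternoon signal were more often lower than all probe sets, at 21.7% against 1.2%. In *fhy3*, those with a high afternoon signal moved more often both ways, at 5.50% against 1.78% higher and 4.45% against 0.303% lower. The median log2 change of probe sets with a high afternoon signal was 0.07 in *fhy3* and −0.21 in wild type. Whether the genotypes differ in this was not tested.

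**Figure D5:**
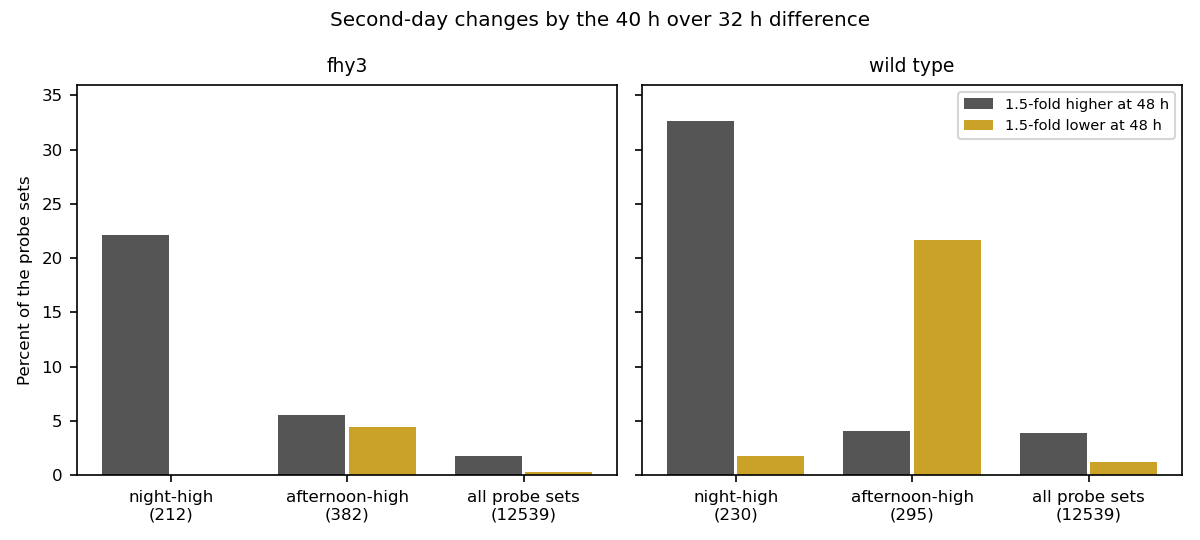
Percent of probe sets at least 1.5-fold higher (grey) or lower (yellow) at 48 h than at 24 h in *fhy3* (left) and wild type (right), for those at least 2-fold higher at 40 h than at 32 h (night-high), those at least 2-fold lower (afternoon-high), and all 12539, with the number of probe sets under each. The tallest bars are the night-high probe sets that were higher at 48 h, 22.2% in *fhy3* and 32.6% in wild type.

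Of the lists for light harvesting, photosystem subunits, and the Calvin cycle, 13 members could be named and had a mean of at least 100. None of them moved, where of all probe sets 1.78% were higher and 0.303% lower in *fhy3* and 3.86% were higher and 1.2% lower in wild type, and a count of 0 among 13 is close to those shares. Their log2 changes lay between −0.29 and 0.39 in *fhy3* and between −0.10 and 0.39 in wild type. *RCA*, the activase of Rubisco, had 10039 in *fhy3* and 10871 in wild type at 48 h, against 10259.5 in *fhy3* and 10793 in wild type at 24 h. Of the chlorophyll synthesis genes 0 of 8 moved, of cell cycle and histone genes 0 of 8, of glucosinolate genes 0 of 5, and of reference genes 0 of 6, among them *GAPC2* with a log2 change within 0.01 of 0 in both genotypes. Counts of 0 in lists this short are likewise close to the shares of all probe sets. In all, 17 of the 29 lists with a member at 100 had none that moved in either genotype.

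In the other lists single genes moved. *IAA29*, an auxin-induced repressor of auxin signalling, was the only one of 6 auxin response genes that moved. It was higher in both genotypes (0.71% of all probe sets), at 216 in *fhy3* and 172 in wild type at 48 h, against 121 in *fhy3* and 110.2 in wild type at 24 h. Of 11 genes of sugar starvation and remobilisation, 1 was higher in *fhy3* (1.78% of all probe sets) and 3 were lower in wild type (1.2% of all). Beside *ICL*, which accounts for 1 of each, these were *AKINBETA1*, a regulatory subunit of the SnRK1 kinase, with 371 in *fhy3* and 465 in wild type at 48 h, against 462 in *fhy3* and 749 in wild type at 24 h, and *IVD*, of branched-chain amino acid breakdown, with a log2 change of 0.06 in *fhy3* and −0.65 in wild type. For 7 of the 11 the log2 change was below 0 in both genotypes, and for 1 it was above 0 in both. Of all probe sets described, 57.7% had a change of the same sign in both genotypes, whether higher or lower. The share of all probe sets below 0 in both was not counted, so whether 7 of 11 differs from it was not tested.

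Of 40 flavonoid genes listed, 3 could be named with a mean of at least 100, and 2 of these were higher in wild type (3.86% of all probe sets). *DFR*, a committed step of anthocyanin synthesis, had 135 at 48 h against 185 at 24 h in *fhy3*, and 229 at 48 h against 107 at 24 h in wild type, and *UGT78D1*, a flavonol glycosyltransferase, had a log2 change of 0.07 in *fhy3* and 0.80 in wild type. *THI2.1*, a thionin gene induced by jasmonate, had 775 at 48 h against 541 at 24 h in *fhy3* and 866 at 48 h against 175 at 24 h in wild type. Of 3 genes of its list it alone moved, higher in wild type (3.86% of all). *COR15B*, a cold-responsive gene, had 405 in *fhy3* and 197 in wild type at 48 h, against 222 in *fhy3* and 132 in wild type at 24 h, which is 1.82-fold in *fhy3* and 1.49-fold in wild type, just under the threshold. Of 12 cell wall growth genes, *XTH18* was higher in *fhy3* (1.78% of all). *EXPB3* was higher (3.86% of all) and *EXPA9* was lower (1.2% of all) in wild type, with log2 changes of 0.72 and −0.63. Single genes in lists this short say little beside those shares.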

How the data were processed

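The deposited intensity values are linear ATH1 probe set signals that the authors scaled between arrays; MAS5 stands in the submitters' processing notes, with no version, and D-chip in the study's methods, and which gave these values is not settled. Signals under 20.7, which is 5% of the array-wide mean (413.5), were set to 20.7, and log2 was taken. Control probe sets (64), those of several genes (503), and those of organelle genes (92) were left out. Names came from a platform annotation updated through RefSeq, so that 13421 probe sets had 1 nuclear gene and 8730 unlisted ones were kept without a name. Of the clock genes, 10 were named by matching fitted means in a supplementary table, each to 1 probe set within 0.001. limma 3.58.1 in R 4.3.3 was fitted to 4 arrays with a term for genotype, with Benjamini-Hochberg adjustment at 0.05, and was tested on simulated data. Probe sets tested had a mean in at least 1 genotype of at least 5% of the mean of all. The number of arrays limits the precision.

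The genes named were, among probe sets with 1 named gene, the 12 higher and 12 lower in both genotypes by the smaller change, the 6 each way in 1 genotype alone, the 4 each way in opposite ways, all clock genes, and up to 4 members of each of 36 lists. Where several probe sets had the same gene, that of highest mean signal stood for it. The members and lists were chosen with earlier results of these data known. Symbols that matched another gene (*CHI*, *ATL5*, *CCR2*, *PGM*, *FRO1*, *TPI*) were dropped from the lists of flavonoid, ribosomal protein, clock output, starch, iron, and Calvin cycle genes. The lists of chitinases and of low-oxygen genes, written from general knowledge, *GSTU25*, *AT1G74010*, *AT5G25930*, and *WRKY6* were chosen after their values were seen. Alternatives concerned scaling, the floor, the filter, the fold, the genotype term, the variance prior, unnamed probe sets, and probe sets that can bind several transcripts. Sequences were not used here.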

Additional observations from a re-analysis of the deposited data

Results flagged for a closer look

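The changes of 7 probe sets went opposite ways in the genotypes by at least 1.5-fold each, which made them stand out as a difference between *fhy3* and wild type, and that difference was not tested, since each change rests on 1 array at each time. The log2 change of *fhy3* minus that of wild type was 2.55 for *ICL*, 1.34 for *AT1G02360*, −1.72 for *AT3G02480*, and −2.79 for *AT5G44570*, and the remaining 3 probe sets have no name. The value of *AT5G44570* is not an exact difference, since its signal in wild type at 24 h was 2.51 and was set to the low-signal limit of 20.7.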

How the results depend on the processing

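Quantile normalization, median centring, and either other floor kept each count of probe sets that moved within 1.5 times its value, and 85 of the 99 that moved the same way did so under quantile normalization. The same held without the probe sets that can bind several transcripts. With limma 0 probe sets passed under 8 of the 10 alternatives. The exceptions were a mean of at least 100, with 21, and an intensity trend with a robust prior, with 12. The share of higher among those with an unadjusted p under 0.05 was 72.5% as scaled, 53.2% after quantile normalization, 59.3% after median centring, 54.2% with the floor at 20%, and 56.6% with no filter.

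The count moving the same way was 99, and it was 51 with at least 100 on each array, 51 with a mean of at least 200, 23 at 2-fold, 443 at a log2 change of 0.32, and 43 among named genes. The count in *fhy3* alone was 84, and it was 43 with a mean of at least 200, 17 at 2-fold, 665 at a log2 change of 0.32, 155 with under 1.5-fold allowed in wild type, and 43 among named genes. The count in wild type alone was 354, and it was 79 at 2-fold, 1474 at a log2 change of 0.32, and 175 among named genes. The count in opposite ways was 7, and it was 2 at 2-fold, 83 at a log2 change of 0.32, and 4 among named genes. These alternatives change the threshold or the number of probe sets by construction. No named gene past 1.5-fold changed direction under quantile normalization or median centring. No replicate could be left out, and no paired analysis by replicate number was possible because each genotype and time has 1 array.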

Other observations

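Transcripts of the plastid genome, left out of the counts above, had a median log2 change of −0.15 for *fhy3*, against 0.04 for wild type, over 61 probe sets with a mean of at least 100. The signal was higher at 48 h for 11 of the 61 in *fhy3* and for 34 in wild type. In *fhy3*, 6 were at least 1.5-fold lower and 1 was higher, against 0.303% and 1.78% of the 12539 probe sets described above. In wild type, 0 were lower and 1 was higher, against 1.2% and 3.86%. The difference between the genotypes was not tested. The 5 mitochondrial probe sets had medians of −0.43 in *fhy3* and 0.03 in wild type.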
